A study of Mus musculus with 16 samples.

Results

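The genes described here were 9 interferon-stimulated genes, Ifit1, Ifit3, Rsad2, Oasl2, Bst2, Isg15, Usp18, Irf7 and Irf9, found by symbol among the 25105 genes of the expression matrix. All 9 were present. They were measured by poly(A) RNA-seq in dispersed pancreatic islet cells of Grp78 flox/flox mice, in which the gene Hspa5 for the endoplasmic reticulum chaperone GRP78 can be cut by Cre recombinase. Every culture received an adenovirus, either Ad-LacZ as control or Ad-Cre to remove Grp78, and was kept for 72 hr in 15 mM glucose with DMSO or with JNK-IN-8, a covalent inhibitor of the c-Jun N-terminal kinases (JNK), present from the start. The 4 groups are called Ad-LacZ, Ad-Cre, Ad-LacZ + JNK Inh and Ad-Cre + JNK Inh. Each group had 4 libraries, one from each of the islet preparations F1, M1, M2 and F2, whose labels carry 2 animal numbers and a letter for sex. The labels restrict neither virus to a cell type, and no culture without virus was analysed here.

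The targeted gene went against the label. Hspa5 stood at 395 to 483 RPKM (mapped reads scaled by transcript length and library depth) in the libraries labelled Ad-LacZ and at 1107 to 1598 RPKM in those labelled Ad-Cre, so that groups are named below by their labels alone. A value per gene does not separate transcripts with and without the floxed exons, and the study's separate qPCR of Grp78 in parallel aliquots is not analysed here. Depth read from the steps between low values was 14.3 to 25.5 M reads in 3 groups and 7.72 to 20.8 M reads in Ad-Cre + JNK Inh. The F2 library of that group was the shallowest. Its library name has another prefix and last field than all others, and the labels do not say what these stand for. The labelled tissue was borne out by islet hormone and beta cell markers, with a summed level of 8 beta cell markers of 33139 to 84105 RPKM over the 16 libraries. Of those 8 markers, 8 were lower in Ad-Cre than in Ad-LacZ and 4 passed the unadjusted call, and in bulk libraries such as these, fewer cells of a type and less RNA per cell cannot be told apart.

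Type I interferons bind the receptor IFNAR1-IFNAR2, whose kinases JAK1 and TYK2 switch on the complex ISGF3. This complex holds IRF9 and binds interferon-stimulated response elements in promoters. Pattern sensors for viral RNA and DNA switch on the interferon genes themselves through IRF3 and IRF7, and in islets this program is best known from viral infection and from type 1 diabetes.

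The core letters of such an element, GAAA followed by any 2 bases and GAAA again, were searched on both strands in the 250 bases before the start of each gene in the RefSeq promoter table (GRCm38.p6), with overlapping matches allowed. Of the 9 genes 8 had a window and 5 of those held a match, against 3.46% of the 27025 genes in the table. The 5 stretches are shown because they are the part of these genes that ISGF3-type factors are known to read, and capitals mark the matches, which on the opposite strand read TTTC, any 2 bases and TTTC.
Isg15, chr4:156200855-156200916, minus strand: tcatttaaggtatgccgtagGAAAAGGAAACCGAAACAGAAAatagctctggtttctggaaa
Bst2, chr8:71537567-71537622, minus strand: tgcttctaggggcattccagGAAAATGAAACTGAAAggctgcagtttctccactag
Rsad2, chr12:26456543-26456592, minus strand: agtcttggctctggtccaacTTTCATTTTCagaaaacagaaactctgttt
Ifit3, chr19:34583353-34583436, plus strand: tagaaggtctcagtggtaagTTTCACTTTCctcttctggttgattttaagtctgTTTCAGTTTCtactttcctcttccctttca
Ifit1, chr19:34640765-34640833, plus strand: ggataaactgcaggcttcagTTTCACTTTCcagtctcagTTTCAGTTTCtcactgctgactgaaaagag
Isg15 held 3 overlapping matches between 78 and 57 bases before the start, Bst2 held 2 overlapping matches between 130 and 115 bases before it, and Ifit3 and Ifit1 each held 2 separate matches. Rsad2 held 1. These letters were not in the windows of Oasl2, Irf7 and Irf9. A match is a description of the sequence and not evidence of binding. Of the 5 genes that held a match, 4 had a higher value in Ad-Cre than in Ad-LacZ in all 4 preparations, as given next, and Ifit1 did not. The same held for Oasl2, without a match, and Usp18, without a window, so for 6 of the 9 genes. How many of all genes were higher in all 4 preparations was not counted. A link between these letters and the differences was not tested.

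All 9 genes were expressed at low levels. In Ad-LacZ the order of mean RPKM was Rsad2 at 3.75, Usp18 at 3.47, Ifit1 at 3.27, Irf9 at 3.02, Bst2 at 2.14, Oasl2 at 1.53, Ifit3 at 1.31, Irf7 at 0.766 and Isg15 at 0.321. The first 4 lay within 1 SD of their neighbours in this order, and Oasl2 and Ifit3 differed by less than the SD of Ifit3. RPKM is scaled by gene length, so these levels can be set side by side. Isg15 rested on 2 to 11 reads per library in Ad-LacZ, and Irf7 and Isg15 did not pass the filter of more than 1 RPKM in at least 4 libraries in any comparison of 2 groups. Their tests there come from a fit without the filter. The loci lie on GRCm38 as GENCODE M21 places them: Ifit1 at chr19:34640871-34650009, Ifit3 at chr19:34583531-34588731, Rsad2 at chr12:26442746-26456452, Oasl2 at chr5:114896936-114912234, Bst2 at chr8:71534255-71537456, Isg15 at chr4:156199424-156200818, Usp18 at chr6:121245906-121270917, Irf7 at chr7:141262706-141266481 and Irf9 at chr14:55603571-55610030. Values are sums over a gene's exons, of which Irf7 shares 1.19% with Phrf1, Irf9 2.28% with Rnf31 and Usp18 4.44% with Gm44148. Ifit3 has the near-identical neighbour Ifit3b, and how reads shared between such copies were counted is not given in the sources used here, so its level is uncertain to that extent.

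**Figure D1:**
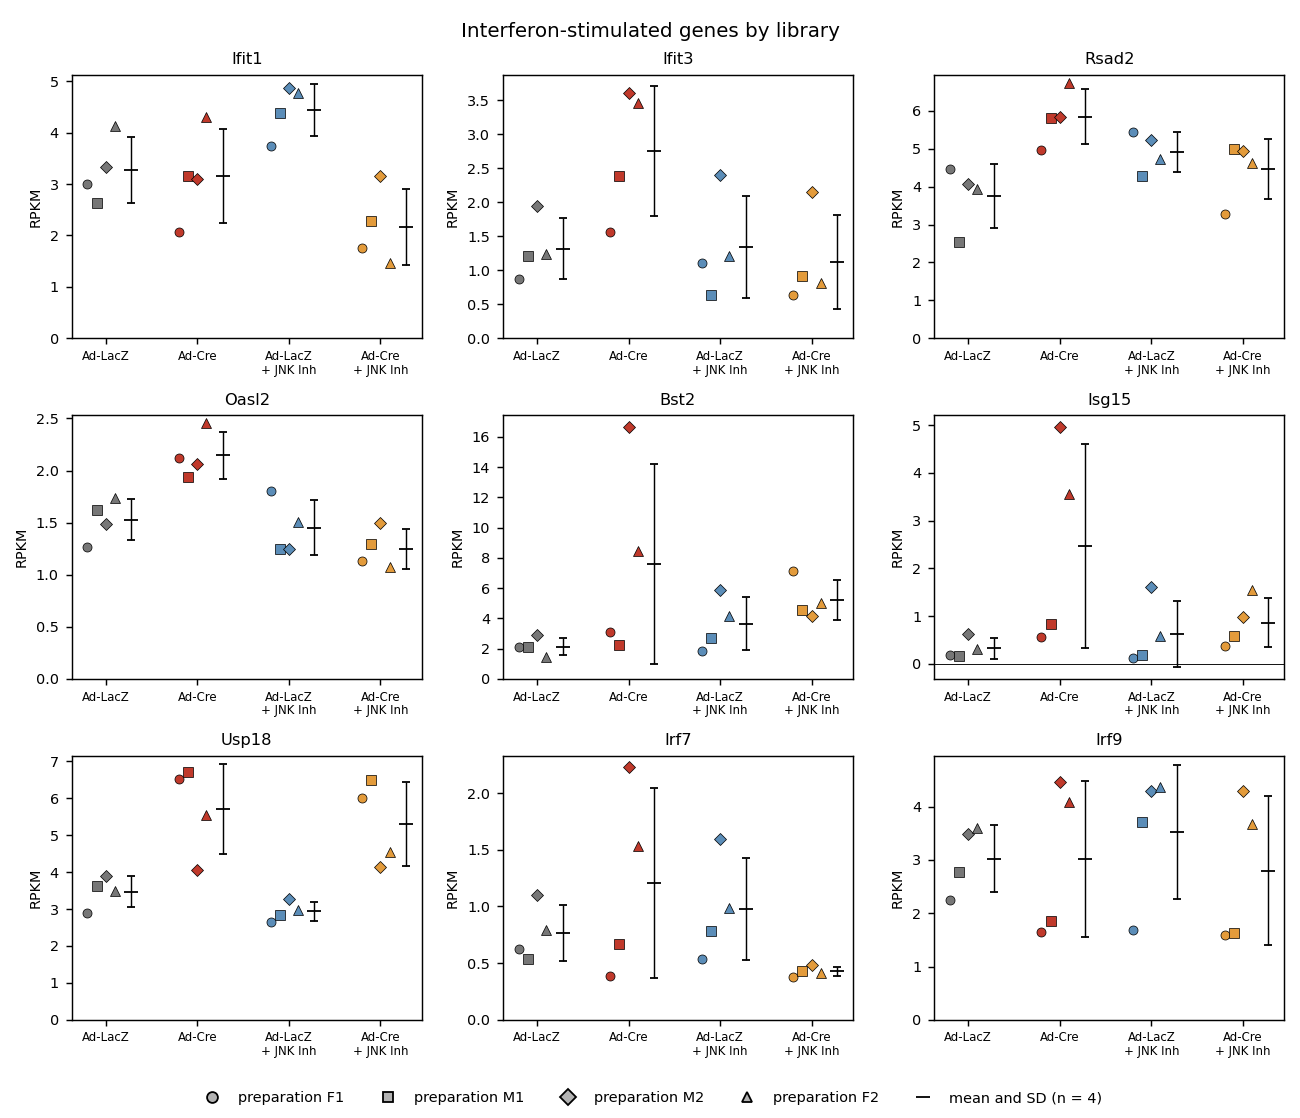
RPKM of the 9 genes in each of the 16 libraries (vertical axis, linear), by group, with a symbol for each islet preparation and the mean and SD of the 4 libraries beside each group. Oasl2, Rsad2 and Usp18 stand higher in every Ad-Cre library than in every Ad-LacZ library, and Bst2, Isg15 and Irf7 spread most within Ad-Cre, where M2 and F2 are highest.

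The first comparison asks how the genes differed between the libraries labelled Ad-Cre and Ad-LacZ. Of the 7 genes tested, Ifit3, Usp18 and Bst2 were higher in Ad-Cre at unadjusted p under 0.05 and a fold change above 1.5, where 10.2% of all 11590 genes tested were called in either direction and 5.32% higher. Ifit3 and Usp18 also passed at adjusted p under 0.05 (limma, Benjamini-Hochberg over all genes tested), where 8.76% of all genes were called and 4.46% higher. No member was called lower. With the preparation as a block, Bst2 passed the adjusted p as well, so that 3 were called against 10.9% of all genes. Over the 9 genes, filter aside, 6 were higher in Ad-Cre in all 4 preparations, which was not counted over all genes. The median log2 difference of the 7 tested was 0.55, beside 0.0093 over all genes.

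Among the effectors that act on viral RNA, Ifit3, an IFIT family protein, read 0.872, 1.2, 1.94 and 1.24 RPKM in Ad-LacZ (preparations F1, M1, M2 and F2, in this order throughout) and 1.57, 2.38, 3.6 and 3.47 RPKM in Ad-Cre. Each preparation was higher in Ad-Cre, although the groups overlapped. The log2 difference was 0.69 ± 0.18 (SE) with an adjusted p of 0.0333 by limma, and the exact two-sided permutation p was 0.0571, where 4 against 4 libraries can give 0.0286 at the least. Without preparation F2 the log2 difference was 0.60 with an adjusted p of 0.164, without M1 the adjusted p was 0.124 and without M2 it was 0.0564 (limma). Ifit1, which binds RNA lacking the host cap methylation, read 3.00, 2.64, 3.34 and 4.12 RPKM in Ad-LacZ and 2.06, 3.16, 3.11 and 4.31 RPKM in Ad-Cre. Its log2 difference was -0.05, with a 95% interval from -0.41 to 0.32, and it was higher in 2 of the 4 preparations.

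Rsad2, the radical SAM enzyme viperin, read 4.47, 2.53, 4.08 and 3.94 RPKM in Ad-LacZ and 4.96, 5.81, 5.85 and 6.75 RPKM in Ad-Cre. The groups did not overlap, a pattern seen for 27.5% of all genes tested in this comparison, 12.7% with Ad-Cre higher. Its log2 difference of 0.55 ± 0.14 (SE) had an adjusted p of 0.0272 by limma but a fold change of 1.47, under the 1.5 that the call asks for, and without preparation F1 it was 0.68 with an adjusted p of 0.0455. Oasl2, a protein related to the oligoadenylate synthetases, read 1.27, 1.62, 1.49 and 1.73 RPKM in Ad-LacZ and 2.12, 1.93, 2.06 and 2.46 RPKM in Ad-Cre, again without overlap. The log2 difference was 0.33 ± 0.10 (SE), with an adjusted p of 0.0519 by limma and 0.0324 with the preparation as a block.

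Bst2, the membrane protein tetherin that holds budding virions at the cell surface, read 2.08, 2.11, 2.89 and 1.48 RPKM in Ad-LacZ and 3.11, 2.28, 16.6 and 8.49 RPKM in Ad-Cre. The difference rested on 2 preparations: on the log2 scale F1 gave 0.47 and M1 gave 0.09, while M2 gave 2.18 and F2 gave 1.89. The fitted log2 difference was 1.16 ± 0.45 (SE), with an adjusted p of 0.101 by limma and 0.0316 with the block. Without preparation F2 it was 0.91 with an unadjusted p of 0.153, and in F1 and M1 alone 0.27 with an unadjusted p of 0.0985 (limma).

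Isg15, the ubiquitin-like protein that is attached to other proteins after interferon, read 0.178, 0.168, 0.633 and 0.304 RPKM in Ad-LacZ and 0.556, 0.832, 4.95 and 3.55 RPKM in Ad-Cre. These values stand for 3, 2, 11 and 5 reads and for 6, 15, 84 and 63 reads. As for Bst2 the values in M2 and F2 were the highest. On the deposited scale 1 Ad-Cre library, F1, lay below the highest Ad-LacZ library, and after TMM scaling the groups did not overlap. In the fit without the filter the log2 difference was 1.18 ± 0.41 (SE), with an adjusted p of 0.123 by limma. Usp18, the protease that takes ISG15 off its targets and also damps signalling at IFNAR2, followed another order of libraries. It read 2.89, 3.63, 3.90 and 3.48 RPKM in Ad-LacZ and 6.53, 6.70, 4.06 and 5.54 RPKM in Ad-Cre, without overlap and with the largest differences in F1 and M1. The log2 difference was 0.59 ± 0.17 (SE), just past the fold change the call asks for, with an adjusted p of 0.0394 by limma. The call at adjusted p was lost without preparation F1 (log2 difference 0.45, adjusted p = 0.160), without M1 (0.53, adjusted p = 0.135) or without F2 (0.61, adjusted p = 0.141) in limma.

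Of the 2 transcription factors neither was called. Irf7, which drives transcription of type I interferon genes, read 0.628, 0.539, 1.11 and 0.792 RPKM in Ad-LacZ and 0.390, 0.666, 2.23 and 1.53 RPKM in Ad-Cre, again highest in M2 and F2, with a log2 difference of 0.25 and an unadjusted p of 0.334 (limma without the filter). Irf9, the DNA-binding subunit of ISGF3, ranged from 2.25 to 3.6 RPKM in Ad-LacZ and from 1.64 to 4.45 RPKM in Ad-Cre, with a log2 difference of -0.06 and a 95% interval from -0.58 to 0.45.

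**Figure D2:**
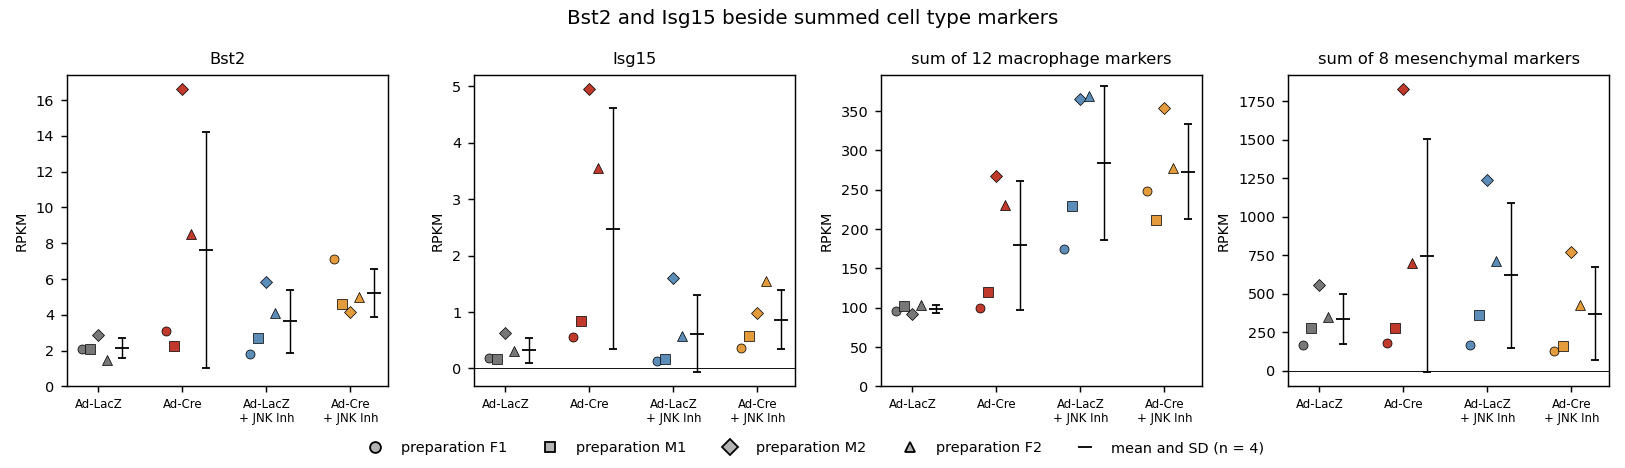
RPKM of Bst2 and Isg15 and the summed RPKM of 12 macrophage and 8 mesenchymal marker genes in each library (vertical axes, linear), by group, with a symbol for each preparation and the mean and SD of 4 libraries. Within Ad-Cre and within Ad-LacZ + JNK Inh, preparations M2 and F2 are highest in all 4 panels. In Ad-Cre + JNK Inh they are highest in all panels but that of Bst2, which is highest in F1. The 2 groups with the inhibitor have macrophage sums of 175 to 369 and Bst2 values of 1.83 to 7.13.

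Markers of some other cells moved with these values, and those of others did not. In Ad-Cre the 4 alpha cell markers summed to 20742, 12365, 13150 and 11513 RPKM. The 2 delta cell markers summed to 2468.1, 1984.3, 2413.2 and 1092.5 RPKM there, so both lists were lowest in F2. The 7 endothelial markers were highest in M2, at 23.9, 21.1, 78.7 and 27.3 RPKM. The summed level of 12 macrophage markers was 91.7 to 103 RPKM in Ad-LacZ and 99.2, 120, 267 and 231 RPKM in Ad-Cre. Of the 10 macrophage markers tested, 10 were higher in Ad-Cre, 6 of them called at unadjusted p and 3 at adjusted p. Of 5 mesenchymal markers tested, 5 had a log2 difference above 0, with a median of 0.98. The 2 duct markers tested had a median of -0.19, and none of either list was called by limma without the block. With the block 4 of the mesenchymal markers were called higher at unadjusted p, as were 734 of all 11590 genes, and 0 at adjusted p. None of the 12 macrophage markers was at 0 in all libraries, and the defining marker Adgre1 read 0.442 to 1.67 RPKM over the 16. The 8 mesenchymal markers summed to 178, 278, 1833 and 699 RPKM in the 4 Ad-Cre libraries and the 8 lymphocyte markers to 0.481, 1.00, 3.55 and 3.99 RPKM. The part of these cells in the higher Bst2, Isg15, Irf7 and Ifit3 was not tested.

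In Ad-Cre cultures the JNK inhibitor was compared with DMSO, which shares the Ad-Cre libraries with the comparison above. Of 7 genes tested, Ifit3 and Oasl2 were lower with the inhibitor at unadjusted p under 0.05 and a fold change above 1.2, where 8.8% of all 11503 genes were called in either direction and 2.94% lower. Ifit3 exceeded 1 RPKM in every Ad-Cre library but only in M2 with the inhibitor, so the filter favoured a lower call for it. No member and 0 genes in all passed limma's adjusted p of 0.05, against 1012 at the unadjusted p. With the preparation as a block 1 member, Ifit3, passed the adjusted p, as did 6% of all genes. Filter aside, 4 of the 9 genes were lower with the inhibitor in all 4 preparations, which was not counted over all genes. Without TMM scaling the split of calls over all genes turned, from 674 of 1012 higher to 307 of 1463 higher.

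Ifit3 read 0.628, 0.910, 2.15 and 0.816 RPKM in Ad-Cre + JNK Inh, below its own Ad-Cre library in each preparation. The log2 difference was -0.74 ± 0.24 (SE), with an unadjusted p of 0.014 and an adjusted p of 0.364 by limma, and an adjusted p of 0.0386 with the block. Without preparation F2 it was -0.58 with an unadjusted p of 0.0912, and without M1 -0.73 with an unadjusted p of 0.0558 (limma). Without M2 Ifit3 did not pass the filter and was not tested. Oasl2 read 1.13, 1.29, 1.5 and 1.08 RPKM, all below the 4 Ad-Cre libraries, and groups apart were seen for 7% of all genes and for 3.08% with the inhibitor lower. Its log2 difference was -0.39 ± 0.11 (SE), with an adjusted p of 0.292 by limma, 0.0817 with the block, and an exact two-sided permutation p of 0.0286.

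The genes that were highest in Ad-Cre M2 and F2 changed unevenly. Bst2 read 7.13, 4.58, 4.15 and 5.02 RPKM with the inhibitor, so that the inhibitor went with a higher value in F1 and M1 and a lower one in M2 and F2, by 1.09, 0.86, -1.58 and -0.54 on the log2 scale. The fitted difference of -0.04 had a 95% interval from -1.09 to 1.01, and in F1 and M1 alone it was 0.95, a split made after these values were seen. Isg15 read 0.363, 0.573, 0.978 and 1.54 RPKM, from 4, 9, 15 and 9 reads, and was lower in all 4 preparations, with a log2 difference of -0.63 and an unadjusted p of 0.185 (limma without the filter). With the block the unadjusted p was 0.0488. Irf7 stood within a narrow range of 0.381 to 0.483 RPKM, against 0.390 to 2.23 RPKM in Ad-Cre, with a log2 difference of -0.48 and an unadjusted p of 0.0684.

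The other members were not called. Usp18 read 6.02, 6.49, 4.13 and 4.55 RPKM with the inhibitor, a log2 difference of 0.03 with a 95% interval from -0.42 to 0.49. Rsad2 read 3.29, 5.00, 4.93 and 4.63 RPKM and was lower in each preparation, by -0.21 with a 95% interval from -0.50 to 0.08. Ifit1 read 1.75, 2.28, 3.15 and 1.46 RPKM, with a log2 difference of -0.29 and an unadjusted p of 0.188. For Irf9 the log2 difference was 0.03. The macrophage sum was 211 to 354 RPKM in this group, and of the 10 macrophage markers tested 5 were higher and 5 lower than in Ad-Cre, with 1, Lyz2, called. Mesenchymal markers were mostly lower, 5 of 6 tested, with a median log2 difference of -0.67, none called without the block. With it 2 were called lower at unadjusted p, as were 892 of all 11503 genes, and 1 at adjusted p, as were 235. All 2 duct, 4 alpha cell and 2 delta cell markers tested were higher, and 5 of 7 endothelial markers. The part of these cells in the members' differences was not tested.

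In Ad-LacZ cultures, where Grp78 was left in place according to the labels, the inhibitor was compared with DMSO in the same way, sharing the Ad-LacZ libraries with the first comparison. Of 7 genes tested, Ifit1, Rsad2 and Bst2 were higher with the inhibitor at unadjusted p and a fold change above 1.2, where 4.79% of all 11657 genes were called in either direction and 2.95% higher. None of the 7 passed limma's adjusted p, which 0.206% of all genes did. Ifit1 read 3.75, 4.38, 4.88 and 4.78 RPKM in Ad-LacZ + JNK Inh. It was higher in all 4 preparations, and on the deposited scale only F1 with the inhibitor lay below a library without it, F2. After scaling the groups did not overlap, which held for 4.7% of all genes and for 2.31% with the inhibitor higher. The log2 difference was 0.37 ± 0.11 (SE) with an adjusted p of 0.404 by limma.

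Rsad2 read 5.44, 4.27, 5.24 and 4.72 RPKM with the inhibitor, a log2 difference of 0.35 with an unadjusted p of 0.0486. Bst2 read 1.83, 2.73, 5.85 and 4.13 RPKM, a log2 difference of 0.51 with an unadjusted p of 0.0495. Both calls were at the edge, and each was lost without preparation M1, M2 or F2, with unadjusted p between 0.0627 and 0.222 (limma). Ifit3, Oasl2 and Irf9 read 0.632 to 2.41, 1.24 to 1.81 and 1.68 to 4.37 RPKM with the inhibitor and had log2 differences of -0.01, -0.03 and 0.14. Usp18 read 2.66 to 3.27 RPKM, a log2 difference of -0.17 with an unadjusted p of 0.0744. The macrophage sum was higher with the inhibitor in every preparation here, at 175, 229, 365 and 369 RPKM, with 10 of 10 markers higher and 8 called. Of 5 mesenchymal markers tested, 5 were higher, with a median log2 difference of 1.79, and 3, the collagens Col1a1, Col1a2 and Col3a1, were called. The 5 duct markers summed to 136 to 274 RPKM in Ad-LacZ and 376 to 909 RPKM with the inhibitor, and of 2 tested 1, Spp1, was called. The part of these cells in the higher Ifit1, Rsad2 and Bst2 was not tested.

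With the inhibitor in both arms, the libraries labelled Ad-Cre and Ad-LacZ differed for Usp18, Ifit1 and Bst2 at unadjusted p and a fold change above 1.5, where 17.8% of all 11598 genes were called. Usp18 and Ifit1 passed the adjusted p as well, where 15.1% were called. Usp18 was higher in Ad-Cre + JNK Inh by 0.77 ± 0.14 (SE) on the log2 scale, with an adjusted p of 0.00624 by limma and no overlap between groups. The same gene was higher in Ad-Cre without the inhibitor, from other libraries of the same preparations, while each group here is shared with a comparison of the inhibitor above. Ifit1 was lower in Ad-Cre + JNK Inh in every preparation, by -0.71 ± 0.17 (SE) on the log2 scale with an adjusted p of 0.0168. The adjusted p of Ifit1 lay between 0.0716 and 0.105 without F1, M1 or F2, and that of Usp18 was 0.0697 without M1 (limma). Bst2 differed by 0.59 with an unadjusted p of 0.0338, and by 0.28 without preparation F1 and 0.85 without M2. With the preparation as a block this call was lost, at an unadjusted p of 0.0668 (limma).

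Ifit3, Oasl2 and Rsad2, which were higher in Ad-Cre without the inhibitor, had log2 differences of -0.06, -0.05 and -0.02 with it, with 95% intervals from -0.64 to 0.52, from -0.36 to 0.26 and from -0.34 to 0.31. Irf7 was lower in every Ad-Cre + JNK Inh library than in every Ad-LacZ + JNK Inh library, by -0.38 on the log2 scale, with an adjusted p of 0.0911 by limma without the filter. The macrophage sums of the 2 groups were 211 to 354 and 175 to 369 RPKM, and none of 10 markers was called by limma. Of 6 mesenchymal markers tested, 6 were lower in Ad-Cre + JNK Inh, with a median log2 difference of -1.20, none called without the block and 4 called at adjusted p with it. With the block 1844 of all 11598 genes were called at adjusted p, 846 of them lower. Of 2 duct markers tested 2 were lower and 1, Spp1, was called at adjusted p. The part of these cells in the members' differences was not tested. Groups apart were seen for 27.7% of all genes tested here, and without TMM scaling 777 of 2168 calls over all genes were higher, against 1135 of 2064 with it.

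**Figure D3:**
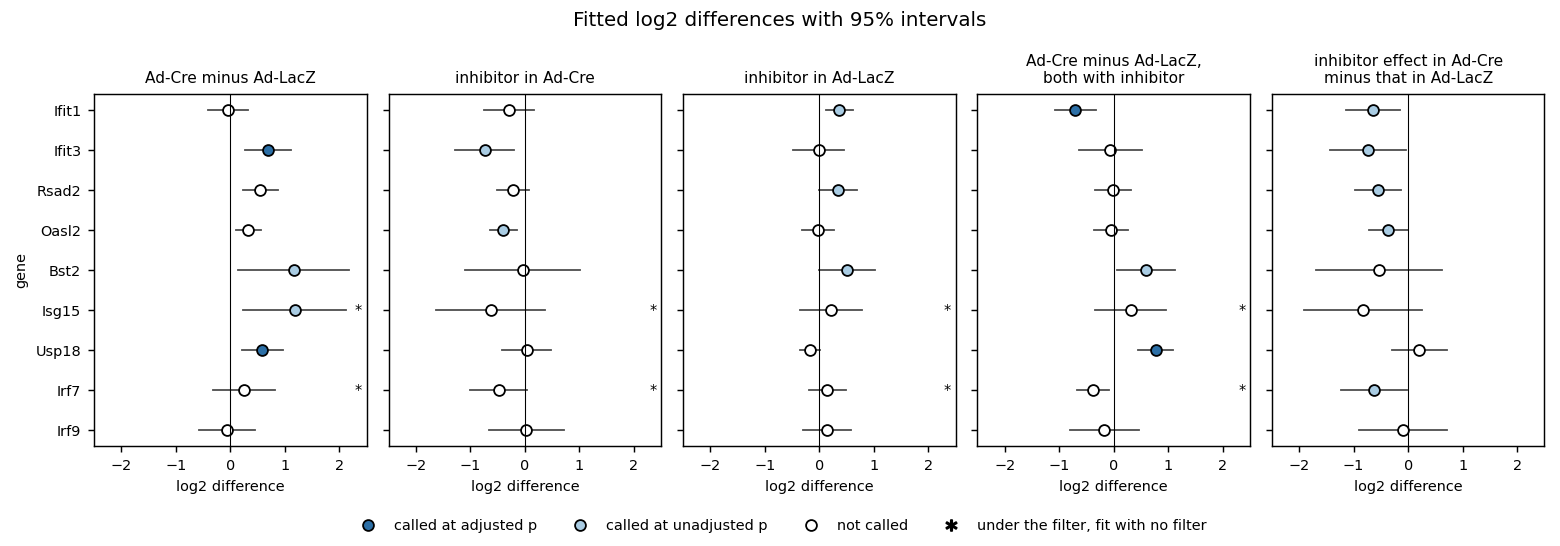
Fitted log2 differences of the 9 genes (horizontal axes, on the scale of log2 of scaled RPKM plus 1) with 95% intervals in the 4 comparisons of 2 groups and in the interaction. Filled points are calls by limma, asterisks mark genes fitted without the filter, and in the last panel 8 of the 9 points lie below 0.

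Whether the inhibitor effect differed by virus was tested as the interaction over all 16 libraries, the inhibitor effect in Ad-Cre minus that in Ad-LacZ, in which all 9 genes passed the filter. For 8 of the 9 the value was below 0, with a median of -0.55 on the log2 scale, while over all 12274 genes the median was -0.0049. Without TMM scaling 103 of 493 calls over all genes were higher, against 243 of 427 with it. Ifit1, Ifit3, Rsad2, Oasl2 and Irf7 were called lower at unadjusted p under 0.05, where 3.48% of all genes were called in either direction and 1.5% lower. Irf7 and Isg15 met the filter in no more libraries than it needs, and Irf7 did not exceed 0.483 RPKM in any Ad-Cre + JNK Inh library. None of the 9 passed the adjusted p, which 0.0163% of all genes did, and the adjusted p of each was 0.9996 by limma. With the block the unadjusted p of Isg15 was also under 0.05, so that 6 genes were called where 11.7% of all genes were, and again none passed the adjusted p.

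By gene, the interaction was -0.65 ± 0.23 (SE) for Ifit1 with an unadjusted p of 0.0133, -0.55 ± 0.20 for Rsad2 with 0.0148, -0.73 ± 0.33 for Ifit3 with 0.042, -0.63 ± 0.29 for Irf7 with 0.0447 and -0.36 ± 0.17 for Oasl2 with 0.0453, all from limma. For Ifit1 and Rsad2 the log2 difference with the inhibitor was 0.37 and 0.35 in Ad-LacZ and -0.29 and -0.21 in Ad-Cre. For Ifit3 and Oasl2 it was -0.01 and -0.03 in Ad-LacZ and -0.74 and -0.39 in Ad-Cre. Each of these calls was lost without at least 1 preparation: without M1 the unadjusted p was 0.0889 for Ifit1, 0.0627 for Ifit3, 0.0802 for Irf7 and 0.0689 for Oasl2, and without F2 it was 0.0518 for Rsad2. Without F1, Oasl2 had an interaction of -0.18 with an unadjusted p of 0.317.

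Within preparations, 29 of the 36 values over 9 genes and 4 preparations were below 0. Ifit1, Ifit3, Isg15, Oasl2 and Rsad2 were below 0 in all 4. The genes share libraries, so the 36 values are not separate results, and neither count was made over all genes. Isg15 had values of -0.12, -0.18, -2.07 and -0.96 and a fitted interaction of -0.83 with an unadjusted p of 0.123, and 0.0205 with the block (limma). Bst2 turned with the preparation, at 1.12 and 0.62 in F1 and M1 and -2.37 and -1.50 in M2 and F2, and the fitted value was -0.53 with a 95% interval from -1.69 to 0.63. In F1 and M1 alone it was 0.86. Usp18 stood apart as the only member above 0, at 0.21 with an unadjusted p of 0.39, and Irf9 was at -0.10.

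**Figure D4:**
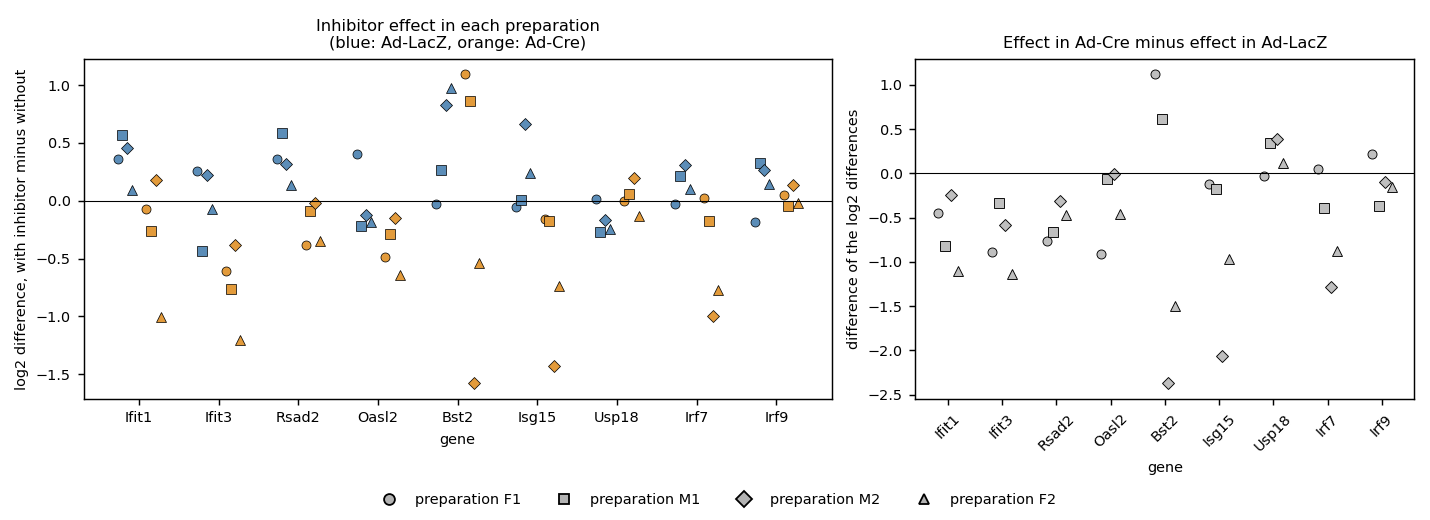
Left, the log2 difference between the cultures with and without JNK inhibitor in each preparation, for Ad-LacZ (blue) and Ad-Cre (orange). Right, the effect in Ad-Cre minus that in Ad-LacZ, which is below 0 in all 4 preparations for Ifit1, Ifit3, Rsad2, Oasl2 and Isg15 and splits by preparation for Bst2.

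Markers of some other cells moved the same way as the members in this test, and those of others did not. Of 7 endothelial markers tested, 5 had an interaction above 0, with a median of 0.20. The 4 alpha cell and 2 delta cell markers tested were all above 0, with medians of 0.44 and 0.73. Of 6 mesenchymal markers tested, 6 had an interaction below 0, with a median of -2.32, none called without the block and 6 called at unadjusted p with it. Of 3 duct markers 2 were below 0, with a median of -0.99. Of 10 macrophage markers tested, 10 had an interaction below 0, with a median of -0.74, and 4 were called at unadjusted p. The part of these cells in the members' interaction was not tested.

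The rest of the pathway was followed in lists of ligands, receptors and signal carriers, sensors, conjugation enzymes, inhibitors and other effectors. Among the ligands, 12 interferon genes were in the matrix and 7 were at 0 in all 16 libraries. Ifnb1, the gene for interferon beta, was above 0 in 1 library, Ad-LacZ + JNK Inh M2, at 0.0577 RPKM, and the 12 genes together did not exceed 0.183 RPKM in any library. None passed the filter, so no interferon transcript was tested, and at this depth a level of a few reads could not be compared.

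Of the 16 receptor, JAK, STAT and IRF genes, 13 were tested between Ad-Cre and Ad-LacZ and 0 passed the call by limma, at either p. The receptor subunit Ifnar1 read 7.81 ± 1.08 RPKM in Ad-LacZ and 11.5 ± 3.08 RPKM in Ad-Cre (SD, n = 4), and the kinase Tyk2 4.64 ± 0.344 and 6.38 ± 0.435 RPKM. Their log2 differences of 0.50 and 0.40 had adjusted p of 0.0381 and 0.0118 by limma but a fold change under 1.5. In the interaction 14 of 14 tested were below 0, with a median of -0.14.

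Among the sensors of viral RNA, Tlr3, the endosomal receptor, was lower in Ad-Cre, from 2.24 ± 0.152 to 0.962 ± 0.331 RPKM, by -0.73 on the log2 scale with an adjusted p of 0.00621 by limma, and by -0.79 with the inhibitor in both arms with an adjusted p of 0.0112. The mean of Tlr3 in Ad-Cre lay under the 1 RPKM of the filter, so without the inhibitor the filter favoured a lower call for it. Its adaptor Ticam1 was higher in both, by 0.63 and 0.74, with adjusted p of 0.00612 and 0.018. The cytosolic sensor Ddx58, RIG-I, was at 4.26 ± 0.481 and 4.29 ± 0.388 RPKM in Ad-LacZ and Ad-Cre and at 4.74 ± 0.624 and 2.74 ± 0.390 RPKM in the same groups with the inhibitor. Its interaction of -0.53 ± 0.12 (SE) had an unadjusted p of 0.00061 and an adjusted p of 0.535 by limma. Of 9 sensor and adaptor genes tested, 1 was called higher and 1 lower in each comparison of the viruses.

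Of the 3 genes that attach ISG15, the conjugating enzyme Ube2l6 was higher in Ad-Cre, at 5.27, 5.25, 10.8 and 8.15 RPKM against 4.37, 3.86, 5.23 and 4.04 RPKM in Ad-LacZ, a log2 difference of 0.61 with an adjusted p of 0.0421 by limma. The activating enzyme Uba7 and the ligase Herc6 were not called, with log2 differences of 0.17 and -0.26. Of the 6 negative regulators, among them the SOCS genes that block JAK kinases, 5 were tested and 0 were called by limma at either p in any of the 5 comparisons. With the preparation as a block 1, Pias4, was called higher at unadjusted p for the inhibitor in Ad-Cre, with a log2 difference of 0.36. Under that rule 2120 of all 11503 genes were called in either direction and 1228 higher. Socs3 read 2.52 ± 0.634 RPKM in Ad-LacZ and 3.09 ± 1.86 RPKM in Ad-Cre.

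A further 61 interferon-stimulated effectors were listed. Of 31 tested between Ad-Cre and Ad-LacZ, 18 were higher and 13 lower, with a median log2 difference of 0.02, and 1, Samd9l, a brake on protein synthesis, was called. It was lower, by -0.88 with an adjusted p of 0.0153 by limma. With the block 2 more, Ifitm3 and Slfn2, were called higher at adjusted p, of 0.0488 and 0.0495, with log2 differences of 1.00 and 0.63. The most abundant of the list, Lgals3bp, read 103 to 174 RPKM in Ad-LacZ and 140 to 177 RPKM in Ad-Cre. Ifitm3, which blocks virus entry at endosomes, read 6.20, 6.76, 15.5 and 13.3 RPKM in Ad-LacZ and 7.96, 7.05, 83.3 and 32.9 RPKM in Ad-Cre, with M2 and F2 highest as for Bst2. Isg20, an exonuclease, was higher in Ad-Cre than in Ad-LacZ by 0.82 when both had the inhibitor, with an adjusted p of 0.0281 by limma. Without the inhibitor its log2 difference between the viruses was 0.51, short of the fold change the call asks for.

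With the inhibitor in both arms, 24 of 31 effectors were lower in Ad-Cre and 5 of them were called at adjusted p, where 6.74% of all genes were called lower. Samd9l, Gbp7, Parp14, Oas1a and Oas1c were lower by -1.25, -0.82, -0.67, -0.60 and -0.60. Oas1a exceeded 1 RPKM in every Ad-LacZ + JNK Inh library but only in F1 of Ad-Cre + JNK Inh, so the filter favoured a lower call for it. In the interaction 31 of 35 were below 0, with a median of -0.31, and 5 were called at unadjusted p. These were Gbp2, a guanylate-binding protein, at -1.18, the oligoadenylate synthetase Oas1a at -0.87, Parp9 at -0.49, Parp14 at -0.43 and the immunity-related GTPase Igtp at -0.36. None passed the adjusted p by limma. With the block 12 were called at unadjusted p and again none at adjusted p. Oas1a read 1.71, 1.13, 2.82 and 2.12 RPKM in Ad-Cre and 1.13, 0.562, 0.549 and 0.687 RPKM in Ad-Cre + JNK Inh, against 1.69, 1.38, 1.73 and 0.879 RPKM in Ad-LacZ and 1.25, 1.64, 2.53 and 1.71 RPKM in Ad-LacZ + JNK Inh.

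**Figure D5:**
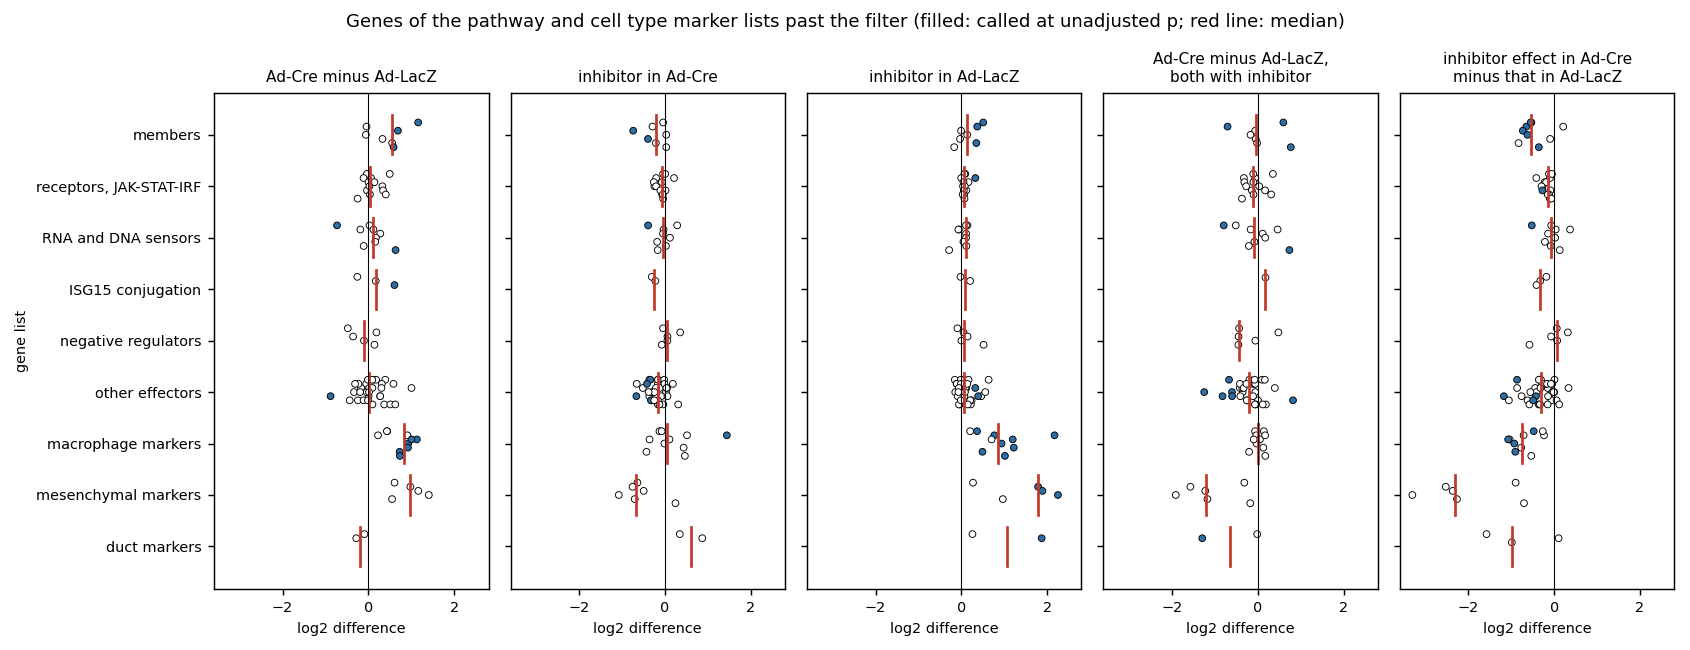
Log2 differences of the genes that passed the filter in each list (horizontal axes, on the scale of log2 of scaled RPKM plus 1), in the 4 comparisons of 2 groups and in the interaction, with filled points called at unadjusted p and a red line at each list's median. In the last panel the medians are -0.55 for the members, -0.31 for the other effectors, and -0.74, -2.32 and -0.99 for the macrophage, mesenchymal and duct markers.

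The 9 genes varied together only in part. Over the 16 libraries, 29 of 36 pairs had a Pearson correlation of log2 values above 0, from -0.60 to 0.81 with a median of 0.30. Bst2 and Isg15 had the highest correlation, and Ifit1 and Usp18 the lowest. The genes outside the list whose log2 values followed the mean of the standardised members most closely were Lyn, with r = 0.93, and then Ighv1-78, Apobr, Nnmt, AW112010, Pik3ap1, Laptm5, Fermt3, Ube2l6 and Ptx3, with r of 0.85 to 0.86 over the 16 libraries. These correlations are descriptions, since the libraries share preparations and treatments, and Ube2l6 is the one gene among them from the pathway lists.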

How the data were processed

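Expression was measured in 16 libraries, 4 per group, by paired-end sequencing of poly(A) RNA. The authors deposited RPKM values per gene, and per the labels the build was GRCm38. The paper's methods describe a filter on depth-scaled counts and TMM scaling for the tests, while the annotation and the step from counts to RPKM are not given in the sources used here. With exon lengths of GENCODE M21, 144 of 144 values of the 9 genes lay within 0.05 of a whole read. Of the matrix columns, 3 that no label names were not used. Precision at low levels is limited by the depth and by 4 libraries per group.

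RPKM was scaled by TMM (unweighted, trimmed 30% and 5%), and log2(RPKM + 1) was fitted by limma 3.58.1 in R 4.3.3 for each gene that exceeded 1 RPKM in 4 or more of the libraries compared, so fold changes are on that scale and understate those of low genes. Calls needed p under 0.05, unadjusted or adjusted by Benjamini-Hochberg over all genes tested, with a fold change above 1.5 between viruses or 1.2 for the inhibitor, and no fold threshold for the interaction. Differences within a preparation are between single libraries. The fit was tested on simulated data. Exact two-sided permutation tests compared 4 with 4 libraries. The rule for named genes took the 9 members, Hspa5, any gene of the ligand, receptor, sensor and negative regulator lists, the 8 other effectors with the highest mean RPKM, up to 5 rises and 5 falls per comparison among effectors with unadjusted p under 0.05, and the 10 genes most like the members. Uba7, Herc6, Slfn2, Lyz2, Adgre1, Spp1, Col1a1, Col1a2 and Col3a1 fall outside that rule and were picked with their values in view. The result of 1 listed gene is not reported here. The members and lists were chosen with earlier results of these data known. Figures used matplotlib 3.10.9 under Python 3.11.15.

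The preparations pair the libraries, since the parallel cultures of a number came from the same islets according to the study's methods. Residuals of same-numbered libraries correlated at 0.484 to 0.716 between Ad-Cre and Ad-LacZ, 0.641 to 0.819 for the inhibitor in Ad-Cre, 0.126 to 0.824 in Ad-LacZ and 0.154 to 0.657 between viruses with the inhibitor. The alternatives were another pseudocount, filter, scaling and pooling of groups, the replicate block, and fits without each preparation or without 1 library.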

Additional observations from a re-analysis of the deposited data

Results flagged for a closer look

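The inhibitor effect differed by virus at unadjusted p for 5 of the 9 genes, by limma's interaction term over 16 libraries. The difference, Ad-Cre minus Ad-LacZ on the log2 scale, was -0.65 for Ifit1, -0.73 for Ifit3, -0.625 for Irf7, -0.36 for Oasl2 and -0.55 for Rsad2. None passed the adjusted p. Among the 36 groups of 4 libraries that the 9 genes form, 0 held a library that stood apart by Dixon's criterion.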

How the results depend on the processing

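Of 570 values of single members under the alternatives, 471 kept their direction and side of the threshold, 60 lost the call, 7 gained it, 30 changed sign without being called and 2 changed sign and were called. Why a value changed was not tested. Voom on recovered reads, preparations F1 and M1 alone, and the block without a filter were chosen after seeing the data. Calls rest on 4 libraries a group and on few reads for Isg15.

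Between Ad-Cre and Ad-LacZ, 2 members passed the adjusted p, against 0 with no filter, with RPKM as deposited or with all 16 libraries in one fit, and 1 with a filter at 0.1 RPKM, quantile normalization, or the replicate block and no filter. Over all genes 1015 of 11590 passed, against 833 of 19984 with no filter and 954 to 1073 under the other settings named. In F1 and M1 alone, where the filter needed every library, 1 passed at either p and the median was 0.30. Without 1 preparation each, 2 to 3 were called at unadjusted p, 0 to 2 at adjusted p. Over all genes those fits gave 857 to 1380 calls at unadjusted p and 327 to 763 at adjusted p. With the replicate block alone 3 passed the adjusted p. For the inhibitor in Ad-Cre, 1 passed it with the replicate block against 0 without, and without 1 preparation each 1 to 2 were called at unadjusted p. Over all genes 690 passed the adjusted p with the block against 0 without. Their 1012 calls at unadjusted p became 449 to 1394 without 1 preparation each. For the inhibitor in Ad-LacZ, 3 calls became 1 with voom, unscaled RPKM, no filter, a minimum of 0.1 RPKM, or F1 and M1 alone, and 1 to 3 without 1 preparation each, with medians of 0.102 to 0.248. Over all genes 558 calls became 533 to 1037 under those settings and 385 to 808 without 1 preparation each. With the inhibitor in both arms, 2 calls at adjusted p became 1 with the replicate block and no filter, and without 1 preparation each there were 0 to 3, and 1 to 3 at unadjusted p. Over all genes 1753 calls at adjusted p became 1422 with that block and no filter. They became 573 to 2452 without 1 preparation each. In the interaction 5 calls became 3 with a pseudocount of 0.1 or voom, 2 in F1 and M1 alone, and 1 to 4 without 1 preparation each. Over all genes 427 calls became 406 with that pseudocount, 394 with voom and 990 in F1 and M1 alone. Without 1 preparation each they became 846 (F1), 217 (M1), 420 (M2) and 151 (F2), so calls over all genes also fell without M1 or F2. Without the shallowest library alone, Ad-Cre + JNK Inh F2, 2 calls, Ifit1 and Rsad2, were left in the interaction, and with the inhibitor in both arms 1, Usp18, at either p, since the fold change of Ifit1 then fell short. Over all genes there were then 395 interaction calls. With the inhibitor in both arms there were 1926 at unadjusted p and 1382 at adjusted p. Bst2 reversed in F1 and M1 alone, to 0.95 for the inhibitor in Ad-Cre and 0.86 in the interaction. RPKM as deposited moved the median of all genes to -0.14 for the inhibitor in Ad-Cre, -0.14 between viruses with it and -0.12 in the interaction.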
